A study of Homo sapiens with 8 samples.

Results

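The strongest open chromatin windows of AIRE-Tet cells are the 2561 windows with the highest FAIRE signal among 256141 windows of 150 bp. They were chosen by scaling each of the 8 libraries to its column total (CPM), averaging the 4 group means, and keeping the top 1%. FAIRE-seq sequences the DNA that is left in the aqueous phase when fixed chromatin is extracted with phenol and chloroform, so a high count marks DNA that is poorly held by nucleosomes. AIRE-Tet is a line made from Tet-On Advanced HEK293 human embryonic kidney cells (Clontech), in which doxycycline induces human AIRE. The 4 groups had 2 independent biological replicates each. DoxEtop cells received 1.5 µM doxycycline and, after 24 h of induction, 2 µM etoposide for 24 h. Dox cells received 1.5 µM doxycycline alone, Etop cells received 2 µM etoposide for 24 h without induction, and Control cells were untreated. The length of induction in Dox cells is not given here, so DoxEtop and Dox may differ in it as well as in etoposide. All groups share the same engineered kidney line and none of the 8 libraries is from cells given doxycycline without the AIRE transgene, so an effect of doxycycline and one of AIRE cannot be told apart.

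In most cell types the strongest FAIRE or accessibility signal sits at active promoters and other regulatory elements, where transcription factors and the transcription machinery displace nucleosomes. AIRE, the autoimmune regulator, lets medullary thymic epithelial cells transcribe many genes that are otherwise restricted to other tissues, and is known to bind topoisomerase II and DNA damage response proteins. Etoposide traps topoisomerase II on DNA in its cut state and so leaves DNA breaks. The study's title concerns DNA breaks, chromatin structure and transcription of AIRE targets, and the comparisons here ask how the most open windows behave under both treatments. Positions are hg19 coordinates, the build in the submitters' processing notes. No annotation of that build was used here, so no window is tied to a gene and no sequence is shown. Input DNA was not analysed here, so extra copies of a DNA segment and more open DNA cannot be told apart in a level. Repeated sequence was not examined either, so the highest levels need not be the most open DNA.

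The signal of the chosen windows, which the choice itself fixed, spanned 9.16 to 127 CPM with a median of 10.5, against a median of 3.42 CPM over all windows. Above 20 CPM stood 84 windows in 18 separate stretches, above 40 CPM 29 windows in 6 stretches, and above 60 CPM 14 windows in 3 stretches. The last 4 windows inside the threshold, on chromosomes 19, 21, 5 and 10, averaged 9.1627, 9.1619, 9.1610 and 9.1603 CPM. The first 4 outside, on chromosomes 16, 15, 19 and 10, averaged 9.1602, 9.1599, 9.1598 and 9.1585 CPM. Windows start every 50 bp and overlap, so neighbours share fragments. Joined where gaps were 100 bp or less, the 2561 windows formed 785 stretches with a median width of 200 bp and a widest of 1550 bp, of which 187 were a single window.

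The strong windows lay in wide open regions. All windows of the table, joined in the same way, gave 35741 regions, and 750 of them (2.10%) held a strong window. These 750 regions had a median width of 1050 bp, against 350 bp for the 34991 others. Regions wider than 1000 bp made up 51.7% of the regions with a strong window, against 7.72% of the rest. Of the 15189 regions of 300 bp or less, 0 held a strong window. Every window in the table had at least 111 counts summed over the libraries, so width and height are not independent here if windows were kept by count.

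Chromosome 19 held 1369 of the 2561 strong windows (53.5%), against 15% of all windows. It is the most gene-dense human chromosome and carries large clusters of zinc finger genes. Chromosome 15 held 7.22% of the strong windows, against 4.38% of all. Chromosome 17 held 3.83% against 8.00%, and chromosomes 11, 13, 4 and Y held 0. Within chromosome 19 the strong windows lay almost entirely on one side of 28 Mb. Beyond that point 1349 of 29509 windows (4.57%) were strong, against 20 of 8903 (0.225%) before it. The median signal of all windows in the table differed little between the 2 sides, 3.41 CPM beyond and 3.42 CPM before. Every window in the table had at least 111 summed counts. The medians therefore cannot show whether the difference was confined to the upper tail. Chromosome 15 was alike in layout, with 185 of 9546 windows (1.94%) strong beyond 65 Mb and 0 of 1672 before.

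**Figure D1:**
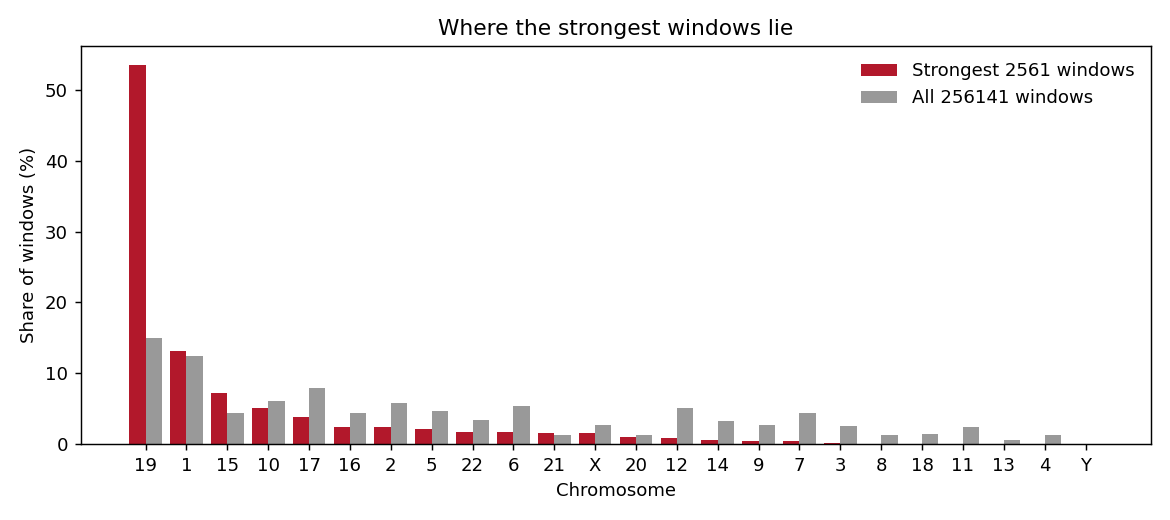
Share of windows on each chromosome (percent), for the 2561 strongest windows (red) and for all 256141 windows (grey), with chromosomes ordered by their number of strong windows. Chromosome 19 stands out, with 53.5% of the strong windows against 15% of all windows.

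On a scale of 1 Mb, chromosome 19 from 36 to 37 Mb held the most, 268 strong windows of 3427 (7.82%). The densest stretches were elsewhere. On chromosome 20 the segment from 26 to 27 Mb had only 33 windows in the table, and 26 of them (78.8%) were strong. On chromosome 2 the segment from 133 to 134 Mb had 44 of 142 (31.0%), and on chromosome 19 the segment from 37 to 38 Mb had 62 of 440 (14.1%). The segments on chromosomes 20 and 2 thus had few windows in the table but strong ones. Whether extra copies or repeated sequence raised their levels was not tested.

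The libraries had column totals of 4489871 to 8275911 counts, which are sums over overlapping windows and not sequencing depths. The strong windows held 3.14% and 3.24% of the counts in the DoxEtop libraries, 3.17% and 3.09% of those in Dox, 3.0% and 3.10% of those in Etop, and 3.19% and 2.97% of those in Control. The 95% Clopper-Pearson intervals of these shares were at most 0.032 percentage points wide. They treat counts as independent, but a fragment counts in several overlapping windows, so they are narrower than counting error. They cannot show whether replicates differed by more than that error. The shares in DoxEtop were above those in Etop, and every other pair of groups overlapped. A strong window had a median of 47 to 95 counts per library, and the lowest single value was 4 counts. Between 91.0% and 99.3% of the strong windows ranked in the top 10% of each library taken alone, but only 44.8% to 66.6% in its own top 1%. When the 4 replicate 1 libraries and the 4 replicate 2 libraries were ranked separately, 1757 of 2561 windows (68.6%) were in both top 1% lists.

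One library stood apart. Across the strong windows, log2 signal correlated between replicates of a group with a Pearson r of 0.620 to 0.691 (n = 2561 overlapping windows). Libraries of the same induction state but another etoposide state gave 0.547 to 0.726, and libraries of opposite induction state gave 0.153 to 0.638. Control replicate 1 supplied the top of that last range: its r was 0.638 with Dox replicate 1, slightly above its r of 0.620 with Control replicate 2. Results that rest on it are therefore given with and without it.

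The single strongest place lay on chromosome 20. Its top window, 26190051 to 26190200, had 172 and 201 CPM in DoxEtop, 103 and 126 CPM in Dox, 81.6 and 148 CPM in Etop, and 94.0 and 92.4 CPM in Control. It was high in all 8 libraries and highest in both DoxEtop libraries. A separate crest of the same region, at 26188951 to 26189100, ranked 4th, with 75.4 and 91.4 CPM in DoxEtop, 41.2 and 49.2 CPM in Dox, 37.0 and 70.3 CPM in Etop, and 39.3 and 35.5 CPM in Control. The 2 crests moved alike across the libraries, and at both Etop replicate 2 came next after the DoxEtop libraries.

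The other places above 40 CPM were on chromosomes 14, 17 and 6. The window at 88237651 to 88237800 on chromosome 14 had 70.7 and 80.0 CPM in DoxEtop, 48.4 and 60.6 CPM in Dox, 70.1 and 105 CPM in Etop, and 54.7 and 76.5 CPM in Control. The window at 42075001 to 42075150 on chromosome 17 had 62.4 and 80.4 CPM in DoxEtop, 36.9 and 67.7 CPM in Dox, 65.5 and 104 CPM in Etop, and 24.4 and 60.1 CPM in Control. At both, replicate 2 was above replicate 1 in every group, and no group stood clear of all the others. The place at 41399751 to 41401300 on chromosome 17 was the widest stretch of all, 26 windows over 1550 bp, and its top window had 36.4 and 44.1 CPM in DoxEtop, 33.7 and 35.9 CPM in Dox, 40.9 and 52.5 CPM in Etop, and 38.2 and 45.8 CPM in Control.

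The 5th strongest place was not strong in every library. Its top window, 119558551 to 119558700 on chromosome 6, had 13.4 and 23.8 CPM in DoxEtop, 9.48 and 14.3 CPM in Dox, 85.2 and 112 CPM in Etop, and 13.7 and 116 CPM in Control. It was high in both Etop libraries and Control replicate 2, and low in all 4 induced libraries and Control replicate 1. The coefficient of variation over the 8 libraries was 97.7%, the highest of all 785 stretches judged by their top windows.

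**Figure D2:**
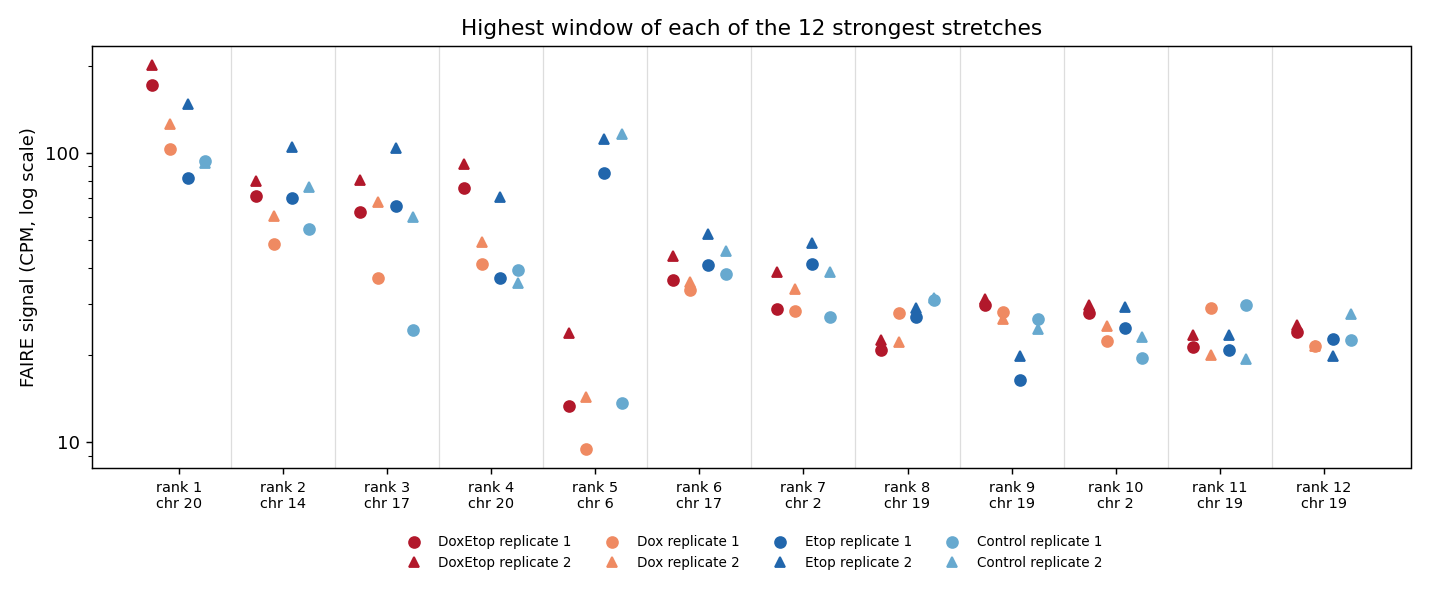
FAIRE signal (CPM, log scale) in the highest window of each of the 12 strongest stretches, 1 point per library, ordered by average signal. Most stretches have all 8 libraries close together, whereas rank 5 on chromosome 6 splits into 3 libraries at 85.2 to 116 CPM and 5 at 9.48 to 23.8 CPM.

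Ranks 7 to 12 were on chromosomes 2 and 19. The window at 133033351 to 133033500 on chromosome 2 ranged from 27.2 to 49.0 CPM, and the one at 133015151 to 133015300, in the same dense segment, from 19.6 to 29.8 CPM. On chromosome 19, 4 started at 44764001, 36422401, 36606151 and 44716651, with averages of 26.6, 25.4, 23.4 and 23.2 CPM. The last of these kept all 8 libraries between 19.9 and 27.8 CPM, a coefficient of variation of 10.8%. Across all strong windows the coefficient of variation had a median of 21.9%, against 35.5% over all windows, whose counts are lower. It ranged from 5.74% to 101% over the strong windows. Among the top windows of the stretches, the steadiest was at 226496751 on chromosome 1 with 7.11%. A high steady one was at 36248951 on chromosome 19, which averaged 19.8 CPM with 8.03%. After the chromosome 6 place, the most variable top windows were at 44669201 and 44507001 on chromosome 19, with 91.9% and 86.6%, and at 136520401 on chromosome X, with 78.2%.

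The shapes of the strong stretches differed. The strongest crest on chromosome 20 and the crest on chromosome 14 rose and fell over a few windows on each side. The rank 4 crest on chromosome 20 rose steeply, from 17.7 to 71.9 CPM in DoxEtop between neighbouring windows. It had 3 windows within 5% of its highest. The places at 42074951 to 42075300 on chromosome 17 and 119558451 to 119558850 on chromosome 6 had flat tops, and on chromosome 17 all 5 windows of the stretch were within 5% of the highest. How duplicate reads were treated is not given in the sources used here, and the cause of the flat tops was not tested. Of the 785 stretches, 4 had 5 or more windows within 5% of their highest, and the median was 2 windows, that one included. The long stretch on chromosome 17 at 41399751 had several crests, and its groups parted over some of its windows.

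**Figure D3:**
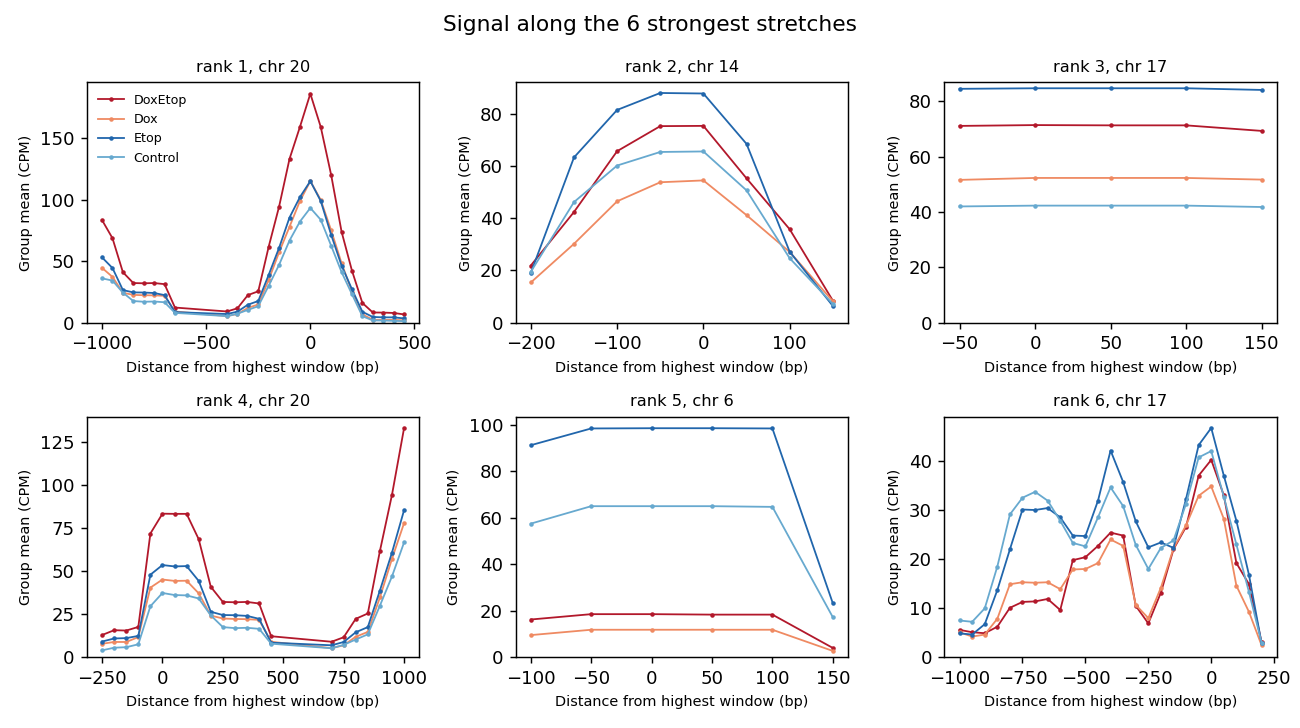
Group mean signal (CPM) against distance from the highest window (bp) along the 6 strongest stretches and neighbouring windows within 1000 bp, with lines joining the windows in the table. Ranks 1 and 4 are 2 crests of 1 region on chromosome 20. Ranks 3 and 5 have flat tops, and rank 4 rises steeply to a short flat top. At rank 6 the induced groups lie far below the uninduced groups about 250 and 750 bp from the crest and closer to them at the crest.

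Induction of AIRE moved a minority of the strong windows, and more of them downward than upward, as in the whole table. In a model of both treatments over all 8 libraries, 233 strong windows (9.10%) differed between induced and uninduced cells, against 7.44% of all windows (edgeR quasi-likelihood F test, Benjamini-Hochberg adjusted p under 0.05 over the whole table). Of these, 168 fell (6.56%, against 6.17% of all windows) in 58 stretches, and 65 rose (2.54%, against 1.27% of all windows) in 40 stretches. Lower windows were 72.1% of the changed strong windows, against 82.9% of all changed windows (by limma-voom 81.8%, against 72.8%). By edgeR the share that fell was near that of the table. By limma-voom the shares that changed were unlike, 5.15% of the strong windows against 0.335% of all windows. The windows that fell had a median log2 fold change of -0.98, and those that rose a median of 0.71. Over all strong windows the median was 0.11 on the log2 scale, against 0.04 over the table, and the 5th and 95th percentiles were -0.78 and 0.56. Over the table the same percentiles were -1.25 and 0.83, so the strong windows spread less, and their counts are higher. The 4 induced libraries did not overlap the 4 uninduced ones in 371 strong windows (14.5%), against 12.6% of all windows, and 164 of those 371 were also past the adjusted threshold.

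The balance of directions depended on scaling. Of the 233 windows changed with the trimmed mean scaling 72.1% were lower, against 66.1% of 236 with column totals alone and 84.8% of 223 when offsets followed signal strength. Without Control replicate 1 there were 298 changed strong windows, 193 lower and 105 higher, and without Control replicate 2 there were 129, 117 lower and 12 higher. Without DoxEtop replicate 1 there were 117, of which 104 were lower, and without Dox replicate 2 there were 141, of which 124 were lower.

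**Figure D4:**
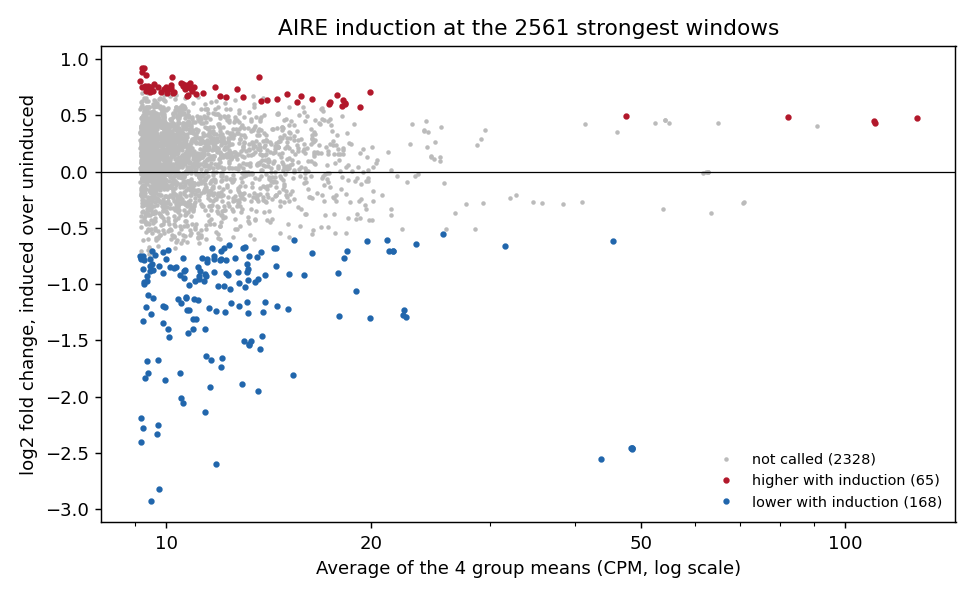
log2 fold change of AIRE-induced over uninduced libraries against average signal (CPM, log scale) for the 2561 strongest windows, with those past an adjusted p of 0.05 coloured. The 168 lower windows (blue) reach -2.93 and the 65 higher windows (red) reach no more than 0.93.

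The losses were deep. The window at 44507001 to 44507150 on chromosome 19 had 0.754 and 2.98 CPM in DoxEtop and 3.87 and 2.23 CPM in Dox, against 16.8 and 17.7 CPM in Etop and 11.1 and 22.7 CPM in Control. It averaged 2.46 ± 1.32 CPM in induced and 17.1 ± 4.74 CPM in uninduced libraries (SD, n = 4 each). It thus passed the 9.16 CPM threshold of the choice through its uninduced libraries alone. The log2 fold change was -2.82 (SE 0.286, edgeR adjusted p = 3.50e-09). The groups were far apart, and in DoxEtop replicate 1 the window held 4 counts.

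A second loss lay at 40315251 to 40315400 on chromosome 19, with 2.45 and 3.58 CPM in DoxEtop and 3.29 and 3.34 CPM in Dox, against 18.2 and 17.7 CPM in Etop and 7.01 and 18.3 CPM in Control. Its log2 fold change was -2.28 (SE 0.273, edgeR adjusted p = 7.91e-08). The induced libraries agreed closely, and Control replicate 1 stood apart from the other uninduced libraries but still above every induced one.

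The other 4 of the 6 deepest losses chosen by rule were also on chromosome 19. They started at 44669201, 40023451, 44488201 and 44711551, with log2 fold changes of -2.26, -2.14, -2.06 and -1.95 and edgeR adjusted p of 4.01e-07, 3.46e-08, 8.09e-08 and 6.40e-08. The last of them had 6.03 and 6.95 CPM in DoxEtop and 4.26 and 5.57 CPM in Dox, against 24.1 and 15.1 CPM in Etop and 16.7 and 30.5 CPM in Control. All 6 stayed past the threshold under each of the 16 alternative analyses, those without any 1 library included. Of these 16, the fit without a filter repeats the main fit, since no window was filtered in either. Of the 6, 4 lie between 44488201 and 44711551. The strong windows at 44764001 and 44716651, the 8th and 12th strongest places, lie beside them and had log2 fold changes of -0.37 and -0.04 (edgeR adjusted p of 0.179 and 0.924).

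The gains were smaller. The highest by the same rule was at 77564401 to 77564550 on chromosome 14, with 13.4 and 10.3 CPM in DoxEtop and 12.2 and 12.9 CPM in Dox, against 4.63 and 5.47 CPM in Etop and 8.46 and 6.92 CPM in Control. Its log2 fold change was 0.92 (SE 0.230, edgeR adjusted p = 0.00618). It passed the 9.16 CPM threshold of the choice through its induced libraries, which averaged 12.2 CPM, against 6.37 CPM in uninduced ones. The induced and uninduced libraries did not overlap.

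The window at 39138201 to 39138350 on chromosome 19 had 19.6 and 18.1 CPM in DoxEtop and 18.4 and 14.9 CPM in Dox, against 8.69 and 9.63 CPM in Etop and 12.2 and 8.25 CPM in Control, a log2 fold change of 0.84 (SE 0.204, edgeR adjusted p = 0.00485). It was the only 1 of the 6 named gains that stayed past the threshold under all 16 alternatives. The others started at 40697201 on chromosome 19, 103851601 on chromosome 14, 85524501 on chromosome 15 and 46707901 on chromosome 21, with log2 fold changes of 0.89, 0.86, 0.84 and 0.81 and edgeR adjusted p of 0.0128, 0.0108, 0.00989 and 0.0182. Each of these, and the one on chromosome 14 at 77564401, lost its call in 1 to 4 of the 16 alternatives. Limma-voom ended those at 40697201 and 46707901 (limma-voom adjusted p of 0.0777 and 0.0551). Leaving out Control replicate 2 ended 4 of these 5 calls, DoxEtop replicate 1 ended 3, Dox replicate 2 ended 2 and DoxEtop replicate 2 ended 1.

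**Figure D5:**
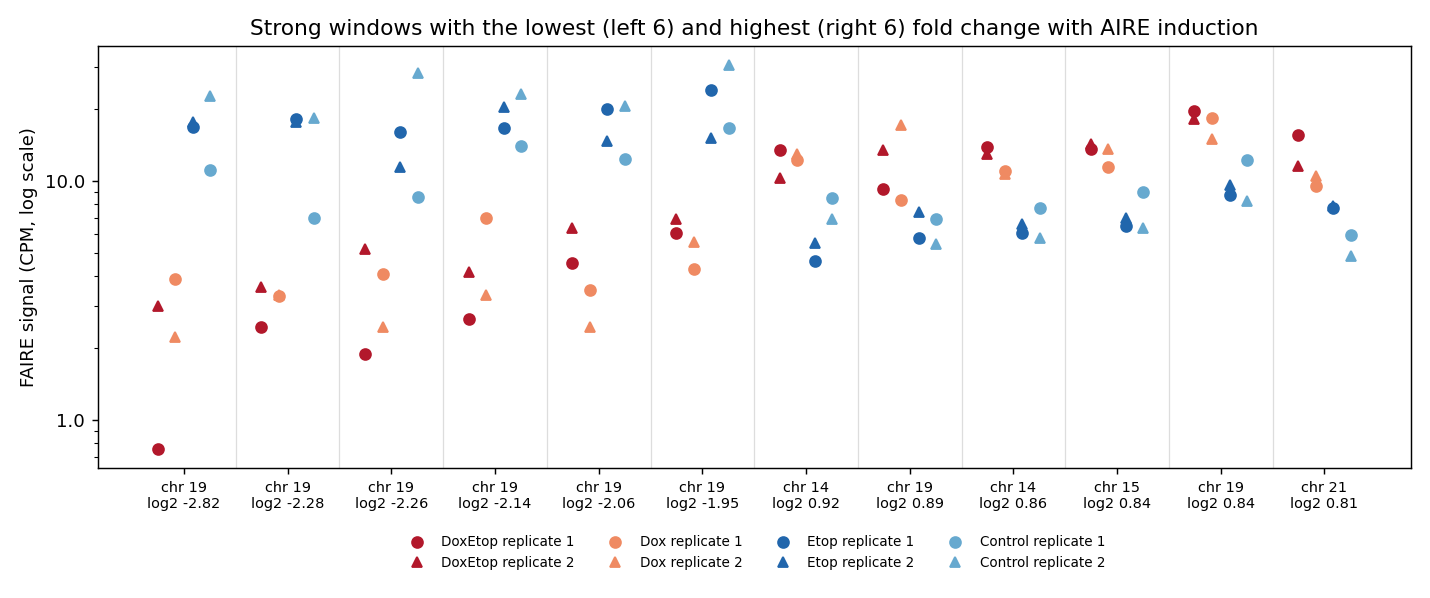
FAIRE signal (CPM, log scale) per library in the 6 strong windows with the lowest and the 6 with the highest log2 fold change with AIRE induction, among changed windows whose libraries did not overlap. The induced libraries (red and orange) lie below the uninduced ones (blue) at the left 6, all on chromosome 19, and above them at the right 6.

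Among the 12 strongest places, 6 had 0 windows that passed the test for induction. The chromosome 6 place fell over all 6 of its windows, with a log2 fold change of -2.46 (SE 0.264, edgeR adjusted p = 5.52e-09) at its top, although Control replicate 1 was as low there as the induced libraries. The log2 fold change was -2.82 without Control replicate 1 and -1.67 without Control replicate 2. The strongest place, on chromosome 20, rose in 4 of its 12 windows, with a log2 fold change of 0.48 (SE 0.136, edgeR adjusted p = 0.0192) at its top and a mean of 151 ± 44.1 CPM in induced and 104 ± 29.8 CPM in uninduced libraries (SD, n = 4 each). Those libraries overlapped, since Etop replicate 2 was above both Dox libraries.

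The widest stretch changed away from its top window. At 41400751 to 41400900 on chromosome 17, 250 bp before the top window, the signal was 4.34 and 9.53 CPM in DoxEtop and 7.54 and 8.46 CPM in Dox, against 25.9 and 18.8 CPM in Etop and 14.4 and 21.7 CPM in Control. The log2 fold change was -1.46 (SE 0.225, edgeR adjusted p = 8.68e-06). At the top window it was -0.27 (SE 0.155, edgeR adjusted p = 0.296), and 12 of the 26 windows fell. The falls took in the crest at 41400301 (log2 fold change -1.30, edgeR adjusted p = 2.10e-05), the crest at 41400601 (log2 fold change -0.66, edgeR adjusted p = 0.0107) and the dip after it, while the 5 windows farthest from the top, from 41399751, had log2 fold changes of 0.02 to 0.18 and did not pass the threshold. This stretch was looked at in detail after its values were seen.

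Falls and rises also sat side by side in 2 regions, both on chromosome 19 and picked out after their values were seen. In the region from 36544801 to 36546450, the window at 36545351 fell, with 8.67 and 12.7 CPM in DoxEtop and 9.67 and 10.9 CPM in Dox, against 25 and 18.2 CPM in Etop and 14.1 and 16.8 CPM in Control (log2 fold change -0.84, edgeR adjusted p = 0.00539). The window at 36545701, 350 bp farther on, rose, with 22.4 and 29.8 CPM in DoxEtop and 23.4 and 24.3 CPM in Dox, against 17.4 and 14.7 CPM in Etop and 15.6 and 12.2 CPM in Control (log2 fold change 0.71, edgeR adjusted p = 0.00879). In both windows the induced and uninduced libraries did not overlap. In the region from 39616101 to 39616950, the window at 39616151 fell (log2 fold change -0.88, edgeR adjusted p = 0.0124) and the one at 39616451 rose (log2 fold change 0.74, edgeR adjusted p = 0.0366).

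Most regions were of 1 kind. Of the 750 regions with a strong window, 657 had no changed strong window, 55 had falls without rises, 36 had rises without falls and 2 had both. A window that fell was the top window of its region in 20.8% of cases, one that rose in 35.4%, and one that did not pass the threshold in 29.7%. In 4 equal classes of strong windows by level, low to high, 4.52%, 3.28%, 8.44% and 10.0% fell, and the counts behind a window rise with its level as well. On chromosome 19, 8.55% of the strong windows fell and 2.48% rose, against 4.28% and 2.60% of those on other chromosomes. Over all windows of the table the shares were 10.0% lower and 1.14% higher on chromosome 19, against 5.49% and 1.29% elsewhere. The larger share of falls on chromosome 19 was thus seen over all its windows too.

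Control replicate 1 was again intermediate at the 168 windows that fell. Their median signal was 5.84 and 8.94 CPM in DoxEtop and 8.51 and 7.24 CPM in Dox, against 16.1 and 15 CPM in Etop and 13.2 and 19.6 CPM in Control. Control replicate 1 was below Control replicate 2 in 144 of the 168 and was the lowest uninduced library in 86.

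AIRE induction without and with etoposide was compared through libraries that the 2 comparisons do not share. Without etoposide, Dox against Control, 50 strong windows fell (1.95%, against 0.848% of all windows) and 0 rose (against 0.0156% of all windows), where 269 (10.5%) had an unadjusted p under 0.05 in either direction, against 10.9% of all windows. With etoposide, DoxEtop against Etop, 94 changed (3.67%, against 2.88% of all windows), of which 82 fell (3.20%, against 2.43% of all windows) and 12 rose (0.469%, against 0.450%). The 50 falls lay in 21 stretches with a median log2 fold change of -1.66, and the 82 in 34 stretches with a median of -1.41. Both lists shared 46 windows, 92.0% of the first and 56.1% of the second. Over all windows, 57.6% of the falls without etoposide and 20.1% of those with it were shared.

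The chromosome 6 place had the lowest log2 fold change by rule in Dox against Control. Its window at 119558451 to 119558600 had 8.51 and 10.7 CPM in Dox, against 12.7 and 102 CPM in Control (log2 fold change -2.62, SE 0.401, edgeR adjusted p = 0.000458). The Dox libraries were below both Control libraries, but only Control replicate 2 was far above them, and the log2 fold change was -0.42 without it and -3.48 without Control replicate 1. In DoxEtop against Etop the same window had 11.5 and 21.1 CPM in DoxEtop, against 78.4 and 104 CPM in Etop (log2 fold change -2.51, SE 0.385, edgeR adjusted p = 0.000139). All DoxEtop values there were below all Etop values, and the call was lost by DESeq2, by limma-voom and without DoxEtop replicate 1 (adjusted p up to 0.222). The other named falls in Dox against Control were at 44669151 and 44507001 on chromosome 19, with log2 fold changes of -2.52 and -2.47 (edgeR adjusted p of 0.00121 and 0.000647). Neither was called by DESeq2 or limma-voom, nor was the chromosome 6 window in this comparison. DESeq2 called 14 of the strong windows in Dox against Control and limma-voom 5, and leaving out Control replicate 2 or either Dox library left 0, whereas 85 changed without Control replicate 1.

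In DoxEtop against Etop the deepest fall was at 44506951 to 44507100 on chromosome 19, with 0.754 and 2.18 CPM in DoxEtop, against 17.2 and 16.2 CPM in Etop (log2 fold change -3.53, SE 0.450, edgeR adjusted p = 2.05e-05). With 1 window per stretch, that at 40315251 followed with a log2 fold change of -2.60 (edgeR adjusted p = 0.000110). By limma-voom the fall at 44506951 lost its call and that at 40315251 kept it, and DESeq2 called both. The highest rises were at 24407701 and 39898151 on chromosome 22 and at 30007451 on chromosome 16, with log2 fold changes of 1.39, 1.35 and 1.27 (edgeR adjusted p of 0.0223, 0.0172 and 0.0315). The first and last of these rises lost their calls by DESeq2, and all of them did by limma-voom. The first of them had 12.8 and 11.5 CPM in DoxEtop, against 3.78 and 5.47 CPM in Etop. Without DoxEtop replicate 1 the 94 changed strong windows came to 2, without Etop replicate 1 to 28 and without Etop replicate 2 to 168. DESeq2 called 34 and limma-voom 23.

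Both treatments together, DoxEtop against Control, changed 108 strong windows (4.22%, against 1.64% of all windows). Of these 83 fell (3.24%, against 1.48%) and 25 rose (0.976%, against 0.154%), the rises in 7 stretches. With each stretch represented by its window with the smallest p, the highest rises were at 46707901 on chromosome 21, 26188901 on chromosome 20 and 44302951 on chromosome 19. Their log2 fold changes were 1.30, 1.26 and 1.13 (edgeR adjusted p of 0.0245, 0.00298 and 0.0417). The windows on chromosomes 21 and 19 lost their calls by DESeq2 and by limma-voom, and that on chromosome 20 kept its call by both. Over all strong windows the highest value in this comparison was 1.58. The chromosome 20 window, 26188901 to 26189050, had 65.8 and 78.1 CPM in DoxEtop, against 30.6 and 28.7 CPM in Control, and it belongs to the 4th strongest place. At the strongest window of all, in the same region, DoxEtop libraries were 0.98 above Control on the log2 scale (SE 0.203, edgeR adjusted p = 0.00592).

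By the same rule, the deepest falls with both treatments were at 44506951, 40023451 and 44669151 on chromosome 19. Their log2 fold changes were -3.52, -2.46 and -2.42 (edgeR adjusted p of 3.05e-05, 0.000181 and 0.00118). By limma-voom the first and last lost their calls, and by DESeq2 only the last did. The first had 0.754 and 2.18 CPM in DoxEtop, against 9.79 and 23.7 CPM in Control. This comparison shares its Control libraries with Dox against Control and its DoxEtop libraries with DoxEtop against Etop. Without DoxEtop replicate 1 it gave 0 changed strong windows, without Control replicate 2 it gave 7 and without Control replicate 1 it gave 117. DESeq2 called 39, of which 2 rose, and limma-voom 35, of which 15 rose. Without DoxEtop replicate 2 there were 81, of which 3 rose.

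Etoposide moved 0 of the 2561 strong windows past the adjusted threshold in the model of both treatments, against 0% of all windows. By edgeR 172 strong windows (6.72%) had an unadjusted p under 0.05, against 5.83% of all windows, and the smallest adjusted p was 0.477. DESeq2 and limma-voom also called 0 strong windows. Etoposide-treated and untreated libraries did not overlap in 61 strong windows (2.38%), against 2.57% of all. The median log2 fold change was -0.04. The strongest windows had larger values, 0.50 (SE 0.136, edgeR adjusted p = 0.639) at the top of the table on chromosome 20 and 0.73 (edgeR adjusted p = 0.618) at 42075001 on chromosome 17.

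Both places passed the threshold under some alternatives. Without Etop replicate 1, 18 strong windows rose, 13 in the chromosome 20 region from 26188701 to 26190650 and 5 at 42074951 to 42075300 on chromosome 17 (smallest edgeR adjusted p of 8.72e-05 and 0.0250). The same 2 regions held the 7 that rose when replicate number was a term in the model. Without Control replicate 2, the 5 that rose were all in the chromosome 6 place, where Control replicate 1 then stood alone for the untreated cells. At the chromosome 20 place Etop replicate 1, with 81.6 CPM at the top window, was below both Control libraries, with 94.0 and 92.4 CPM, and Etop replicate 2, with 148 CPM, was above them.

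Etoposide alone, Etop against Control, also gave 0 changed strong windows (0% of all windows), with 126 (4.92%) at an unadjusted p under 0.05 by edgeR, against 5.57% of all windows, and 0 by DESeq2 and limma-voom. The smallest p belonged to 46916851 to 46917000 on chromosome 19, with 4.49 and 4.82 CPM in Etop, against 11.7 and 12.2 CPM in Control (log2 fold change -1.35, SE 0.331, edgeR adjusted p = 0.855). Its libraries did not overlap, yet it did not pass among 256141 windows. With 1 window per stretch, 42075151 on chromosome 17 and 231376801 on chromosome 1 came next. The first of them had 65.2 and 103 CPM in Etop, against 23.7 and 59.8 CPM in Control. The 2 log2 fold changes were 1.01 and -1.19 (edgeR adjusted p = 0.863 for both). Without Control replicate 2, 11 strong windows rose, 5 at that chromosome 17 place and 6 at the chromosome 6 place, and without Etop replicate 2 a single window on chromosome 1 fell.

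Etoposide on top of AIRE, DoxEtop against Dox, gave 0 changed strong windows by edgeR (0% of all windows) and by DESeq2, and 8 by limma-voom, all higher and all in the chromosome 20 region. By edgeR 105 (4.10%) had an unadjusted p under 0.05, against 4.26% of all windows. Taking 1 window per stretch, 2 of the 3 windows with the smallest p were in that same region. The one at 26189051 to 26189200 had 75 and 91.6 CPM in DoxEtop, against 40 and 49.0 CPM in Dox (log2 fold change 0.91, SE 0.232, edgeR adjusted p = 1.0). The other was at 26189951, with 0.77, and the last was at 133034501 on chromosome 2, with 14.3 and 16.1 CPM in DoxEtop, against 7.93 and 7.35 CPM in Dox (log2 fold change 1.0, edgeR adjusted p = 1.0).

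Whether etoposide altered the effect of AIRE induction was tested as an interaction, and 0 strong windows passed (0% of all windows), with 58 (2.26%) at an unadjusted p under 0.05 by edgeR, against 4.14% of all windows, and 0 by DESeq2 and limma-voom. The smallest p was at 44258751 on chromosome 19, where AIRE-induced libraries had 14.9 and 12.1 CPM with etoposide and 8.12 and 8.69 CPM without, against 5.47 and 8.32 CPM with etoposide and 15.2 and 9.87 CPM without in uninduced libraries (log2 difference 1.58, SE 0.460, edgeR adjusted p = 1.0). The 2 next, with 1 window per stretch, were at 10458851 and 231664251 on chromosome 1, with -1.37 and 1.32. Without Control replicate 2, 5 windows passed, all at the chromosome 6 place. With 2 libraries per group the model left 4 residual degrees of freedom. The quasi-likelihood F test adds to them by pooling the spread over all windows.

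With windows joined into regions and Simes' p adjusted over the 35741 regions, 273 of the 750 regions with a strong window (36.4%) changed with AIRE induction, against 14.3% of all regions. Of these 257 were lower and 16 higher at their leading window. That window need not be a strong one, and wider regions hold more windows. In DoxEtop against Etop 129 of the 750 regions (17.2%) changed, against 5.98% of all, in DoxEtop against Control 91 (12.1%), against 3.33%, and in Dox against Control 58 (7.73%), against 1.85%. For the etoposide comparisons and the interaction 0 regions changed.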

How the data were processed

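FAIRE-seq libraries came from formaldehyde-fixed AIRE-Tet cells, 2 per group, as 100 bp paired-end reads; 10% of the material went to input, per the labels' protocols. Trim Galore, Bowtie2, Bowtie and hg19 are named in the submitters' processing notes. How fragments were counted, windows selected, duplicates treated or input used is not given in the sources used here. The deposited table holds raw counts per 150 bp window at 50 bp steps, with at least 111 counts summed over 8 libraries.

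CPM here are deposited counts scaled to the column total. The members and all lists were chosen with earlier results of these data known. The choice averages the groups equally and uses no difference between them. A window can still pass through the induced or the uninduced libraries alone. At the 6 named losses with AIRE induction the induced means were 2.46 to 5.70 CPM, below the 9.16 CPM threshold. At such windows the choice and the fold change are not independent. Tests ran on all 256141 windows (edgeR 4.0.16, R 4.3.3, quasi-likelihood F test, two-sided, TMM scaling, Benjamini-Hochberg threshold 0.05); filterByExpr removed 0. An additive model gave both main effects (5 residual degrees of freedom), and a model of group means gave the other comparisons (4). The F test adds prior degrees of freedom estimated from the spread over all windows, a number not given here. The p therefore rest largely on that pooled spread. The common biological coefficient of variation was 26.3% and 26.4%. SE is the absolute log2 fold change over the square root of F. Correlations used log2(CPM + 0.1). Alternatives were DESeq2 1.42.0, limma-voom (limma 3.58.1), other scalings, a minimum of 160 summed counts, a replicate block, leaving out each library, and Simes' p per region. The top windows of the 785 stretches gave replicates a chi-square of 2.02 to 5.03 per degree of freedom, more than sampling noise, so no pair was treated as 1 library deposited in duplicate. Scripts were tested on counts simulated with the common coefficient of variation. There the AIRE induction test recovered 24% of 50 strong windows raised 2-fold and 10% of 50 lowered 2-fold. At 4-fold it recovered 100% and 94%. A count of 0 changed windows therefore does not show that 2-fold changes were absent.

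Named windows follow 1 rule. They are the 12 strongest stretches, the 4 windows on each side of the threshold, and the 5 steadiest and 5 most variable stretches. For each main effect they are the 6 highest and 6 lowest log2 fold changes among changed windows whose libraries did not overlap. For other comparisons they are 3 and 3, or the 3 smallest p where none changed. In every comparison 1 window per stretch was taken, that with the smallest p, so other windows of a stretch can have larger changes.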

Additional observations from a re-analysis of the deposited data

Results flagged for a closer look

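In 48 groups of 4 libraries from 24 named windows, 2 held a library far from the other 3 by Dixon's criterion (its gap to the nearest library over the range, at the 95% level), which chance gives in about 1 group in 20. At 26188951 on chromosome 20, Etop replicate 2 had 70.3 CPM, against 35.5, 37.0 and 39.3 CPM in the other uninduced libraries, a ratio of 0.892. At 40315251 on chromosome 19, Control replicate 1 had 7.01 CPM, against 17.7, 18.2 and 18.3 CPM in the other uninduced libraries, a ratio of 0.952. The cause of neither was tested.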

How the results depend on the processing

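Counts of changed strong windows under other tools, with edgeR's first: limma-voom gave 132 and not 233 for AIRE induction (5.15%, against 0.335% of all windows; with edgeR 9.10%, against 7.44%). Dox vs Control had 50, against 14 by DESeq2 and 5 by limma-voom. DoxEtop vs Control had 108, against 39 and 35, DoxEtop vs Etop 94, against 34 and 23, and DoxEtop vs Dox 0, against 0 and 8. The replicate block gave 7 for etoposide and 5 for Etop vs Control, where the main model gave 0, and moved no other count by over 1.5 times. Same-numbered libraries deviated together with correlations of -0.0716 to 0.125 over all windows and -0.0513 to 0.257 over the strong windows, the highest between DoxEtop and Control, and not every pair was above 0.1, so the numbers were not taken as pairs. Leaving out 1 library, where the lone library of a group was assumed to vary like the others, gave 117 to 298 for AIRE induction, 0 to 18 for etoposide, 0 to 85 for Dox vs Control, 0 to 11 for Etop vs Control, 0 to 138 for DoxEtop vs Control, 0 to 0 for DoxEtop vs Dox, 2 to 168 for DoxEtop vs Etop and 0 to 5 for the interaction. The cause of these shifts was not tested. No named window reversed. Calls were lost in 12 of 192 values for AIRE induction, 15 of 48 for Dox vs Control, 24 of 96 for DoxEtop vs Control and 19 of 96 for DoxEtop vs Etop. These values include the fit without a filter, which repeats the main fit and could lose no call. A choice of the top 0.5% or 2% of windows gave 12.3% and 7.79% changed with AIRE induction. TMM-scaled ranking kept 2551 of the 2561 windows. Gaps of 0 or 500 bp gave 799 or 758 stretches, and windows that do not overlap held 3.09% of counts, against 3.11%. Input DNA and sequencing depth, not analysed here, limit what a level means.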
